A study of Mus musculus with 6 samples.

Results

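The genes described here are the 7 mouse genes of a signalling complex built from PIX, GIT and group I PAK proteins: Arhgef7 and Arhgef6 (PIX), Git1 and Git2 (GIT), and Pak1, Pak2 and Pak3 (PAK). They were chosen by gene symbol and are 7 of the 54838 genes counted in each library. RNA was sequenced from glomeruli isolated from mice at 3 weeks of age, with 3 libraries labelled KO (animals 146, 147 and 148) and 3 labelled CTRL (animals 157, 162 and 163). The KO mice have the genotype bPIX -/- with the loss limited to podocytes, and the CTRL mice are wild type. bPIX is the protein made from Arhgef7. Both groups share the age and the tissue. The labels do not say which promoter drives the deletion, which exon was removed or how the glomeruli were isolated. The deposited files are named for the opposite group, and for an animal of it, in all 6 cases. Groups here follow the sample labels, and with the file names every sign below would be turned round.

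PIX proteins are guanine nucleotide exchange factors: they load the small GTPases Rac1 and Cdc42 with GTP. GIT proteins are GTPase-activating proteins for ARF GTPases and form tight oligomers with PIX, and through paxillin these bring PIX to focal adhesions. Group I PAKs are serine/threonine kinases that are switched on by GTP-bound Rac1 or Cdc42, bind the SH3 domain of PIX through a proline-rich stretch, and act on the actin cytoskeleton. Podocytes wrap the capillaries of the glomerulus with actin-rich foot processes.

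The stretch of each PAK gene that codes for the PIX-binding site is shown because it is the point at which the kinases and PIX meet, and because it shows how far the paralogs differ in sequence. The bases are the sense strand of GENCODE M21 transcripts on GRCm38, 39 bases each, and capitals mark the 10 positions at which the 3 genes are not all the same.
Pak1: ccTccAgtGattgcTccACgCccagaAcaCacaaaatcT
Pak2: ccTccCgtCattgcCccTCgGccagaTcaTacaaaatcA
Pak3: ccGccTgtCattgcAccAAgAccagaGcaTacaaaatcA
These lie in coding exons: exon 6 of Pak1 (chr7:97883550-97883588, plus strand), exon 6 of Pak2 (chr16:32041468-32041506, minus strand) and exon 7 of Pak3 (chrX:143733165-143733203, plus strand). Over whole coding sequences, aligned bases were 67.0% identical between Arhgef7 and Arhgef6, 70.4% between Git1 and Git2, and 74.2% to 75.5% among the PAK genes. The longest coding run shared by any pair of paralogs was 23 bases, between Pak1 and Pak3:
Pak1 and Pak3: acagaaacctgtatggatgaagg
No transcript of Git1, Pak1 or Pak3 shared a 50-base word with a transcript of another gene. For Pak2, Git2, Arhgef7 and Arhgef6 the shares of such words were 3.94%, 1.39%, 0.777% and 0.199%. At 100 bases these were 0.672% for Pak2, 0.226% for Git2 and 0.364% for Arhgef7, and 0 for Arhgef6. The genes that shared most words with them were outside the 7. Reads of the length of these words would thus tell the paralogs apart, while the labels do not state the read length. No exon of the 7 genes overlapped an exon of another annotated gene.

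The libraries held 39841396 to 51917945 gene counts. KO 146 stood apart: it had the highest podocyte markers and the lowest proximal tubule markers of all 6 libraries. The 21 podocyte markers summed to 11600, 5360 and 3870 CPM (CPM is the read count scaled to a fixed library size) in KO 146, 147 and 148, against 2260, 2080 and 2400 CPM in CTRL 157, 162 and 163. The 15 endothelial markers summed to 1790 to 5970 CPM in KO libraries against 910 to 1060 CPM in CTRL libraries. The 14 mesangial and smooth muscle markers summed to 556 to 2080 CPM in KO libraries against 354 to 365 CPM in CTRL libraries. The 20 proximal tubule markers summed to 18500 to 31700 CPM in KO libraries against 39400 to 41300 CPM in CTRL libraries. In each of these 4 lists the sums did not overlap between groups. Single genes failed to overlap with KO higher in 21.9% of all tested genes and with KO lower in 19.6%. Of the 70 genes of these lists edgeR called 1, a proximal tubule marker that was lower, against 1.01% of all tested genes. The 16 loop, distal tubule and collecting duct markers summed to 4270 to 7470 CPM in KO libraries. This range overlapped the 6530 to 8220 CPM of the CTRL libraries. No marker of the first 4 lists was at 0 in any library. The podocyte markers that define the glomerulus were thus present in all 6 libraries, and the proximal tubule markers summed to more than the podocyte markers in each. Each value below is a level in a mixture of cells, in which fewer cells of a type and less RNA per cell cannot be told apart. The part of this mixture in the results below was not tested. Fits with marker covariates are given, but cannot separate it from group, because the groups did not overlap in these covariates.

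Arhgef7, the deleted gene, was not called between the libraries labelled KO and CTRL. This gene (ENSMUSG00000031511) lies on chr8:11727721-11835219, plus strand, GRCm38. Its counts were 7837, 3712 and 3903 in KO 146, 147 and 148, and 3956, 3582 and 3915 in CTRL 157, 162 and 163. Scaled, these were 133, 89.6 and 85.9 CPM in the KO libraries and 91.9, 94.1 and 88.4 CPM in the CTRL libraries. KO 146 was the highest of all 6, and KO 147 and KO 148 lay within or just below the CTRL range, with KO 148 the lowest of all 6, so the groups overlapped. The log2 fold change, KO minus CTRL, was 0.17 (SE 0.172, 95% interval -0.24 to 0.58, edgeR adjusted p = 0.544). Without KO 146 it was -0.07, with a 95% interval of -0.20 to 0.07 (edgeR adjusted p = 0.488). With the mean of proximal tubule or podocyte markers as a covariate it was -0.38 or -0.47, also not called. Counts cover the whole gene and all cells, so a deleted exon or a loss limited to podocytes is not isolated by them, and they do not check the labels.

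Arhgef6 (ENSMUSG00000031133, chrX:57231485-57338729, minus strand), which encodes the paralog aPIX, known mostly from lymphocytes and brain, was the less abundant PIX gene in every library. It had 14.3, 8.86 and 7.44 CPM in KO 146, 147 and 148, against 6.46, 7.93 and 7.12 CPM in CTRL 157, 162 and 163. KO 146 and KO 147 were above the CTRL range and KO 148 within it. The log2 fold change was 0.51 (SE 0.251, 95% interval -0.09 to 1.11, edgeR adjusted p = 0.227), and 0.18 without KO 146. The 14 leukocyte markers summed to 189 to 246 CPM in KO libraries and 235 to 252 CPM in CTRL libraries, so these sums overlapped between the groups. Arhgef6 and Pak3 are on the X chromosome. All 6 libraries held 1 to 4 counts of Xist and 2112 to 4197 counts of the Y-linked Ddx3y, a male pattern in both groups.

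Both GIT genes were higher in every KO library than in every CTRL library, by a margin that did not pass the adjusted threshold. Git1 (ENSMUSG00000011877, chr11:77493562-77507786, plus strand), whose product docks the complex to paxillin, had 73.2, 61.4 and 57.1 CPM in KO 146, 147 and 148, against 53.0, 53.7 and 54.4 CPM in CTRL 157, 162 and 163. Its log2 fold change was 0.25 (SE 0.105, 95% interval 0.00 to 0.50, edgeR adjusted p = 0.17). Git2 (ENSMUSG00000041890, chr5:114727407-114775517, minus strand), the other GIT scaffold, had 38.1, 23.4 and 22.3 CPM in KO 146, 147 and 148, against 19.3, 19.6 and 20.1 CPM in CTRL 157, 162 and 163. Its log2 fold change was 0.51 (SE 0.208, 95% interval 0.01 to 1.0, edgeR adjusted p = 0.164). The 3 CTRL values of each GIT gene lay close together, with an SD of 0.734 CPM for Git1 and 0.383 CPM for Git2. The KO values spread more, with an SD of 8.38 CPM for Git1 and 8.81 CPM for Git2, mostly through KO 146. Without KO 146 the log2 fold changes were 0.13 and 0.21 (edgeR adjusted p = 0.165 for Git1 and 0.0826 for Git2). Groups failed to overlap with KO higher in 21.9% of all tested genes, so such a pattern was common in these libraries.

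Of the PAK genes, Pak1 varied most among the libraries labelled KO and Pak2 least. Pak1 (ENSMUSG00000030774, chr7:97788541-97912381, plus strand), the best studied effector of Rac1 and Cdc42 in this group, had 112, 67.7 and 58.6 CPM in KO 146, 147 and 148, against 57.7, 53.6 and 59.8 CPM in CTRL 157, 162 and 163. The KO 146 value was 1.97 times the CTRL mean, KO 147 was 1.19 times, and KO 148 at 1.03 times lay inside the CTRL range. The log2 fold change was 0.48 (SE 0.237, 95% interval -0.09 to 1.05, edgeR adjusted p = 0.228), and 0.14 without KO 146.

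Pak2 (ENSMUSG00000022781, chr16:32016290-32079342, minus strand), the kinase of this group found in nearly all cell types, had 101, 92.3 and 92.0 CPM in KO 146, 147 and 148, against 94.2, 92.4 and 88.7 CPM in CTRL 157, 162 and 163. Its log2 fold change was 0.05 (SE 0.0775, 95% interval -0.13 to 0.24, edgeR adjusted p = 0.688). This interval was the narrowest of the 7 genes, and its KO libraries differed by 1.10-fold from lowest to highest, against 1.92-fold for Pak1. Without KO 146 the log2 fold change of Pak2 was -0.000756.

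Pak3 (ENSMUSG00000031284, chrX:143518591-143797796, plus strand), the kinase of this group known from neurons, was almost absent. It was counted 11, 8 and 10 times in KO 146, 147 and 148, and 13, 18 and 20 times in CTRL 157, 162 and 163. Scaled, these were 0.186, 0.193 and 0.220 CPM in the KO libraries and 0.302, 0.473 and 0.452 CPM in the CTRL libraries. Every KO library was below every CTRL library, a pattern found in 19.6% of all tested genes. The log2 fold change was -1.02 (SE 0.292, 95% interval -1.72 to -0.33, edgeR adjusted p = 0.086), on 80 counts in all 6 libraries together. The 10 neuron and glia markers summed to 14.6 to 21.2 CPM in KO libraries and 11.9 to 16 CPM in CTRL libraries.

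**Figure D1:**
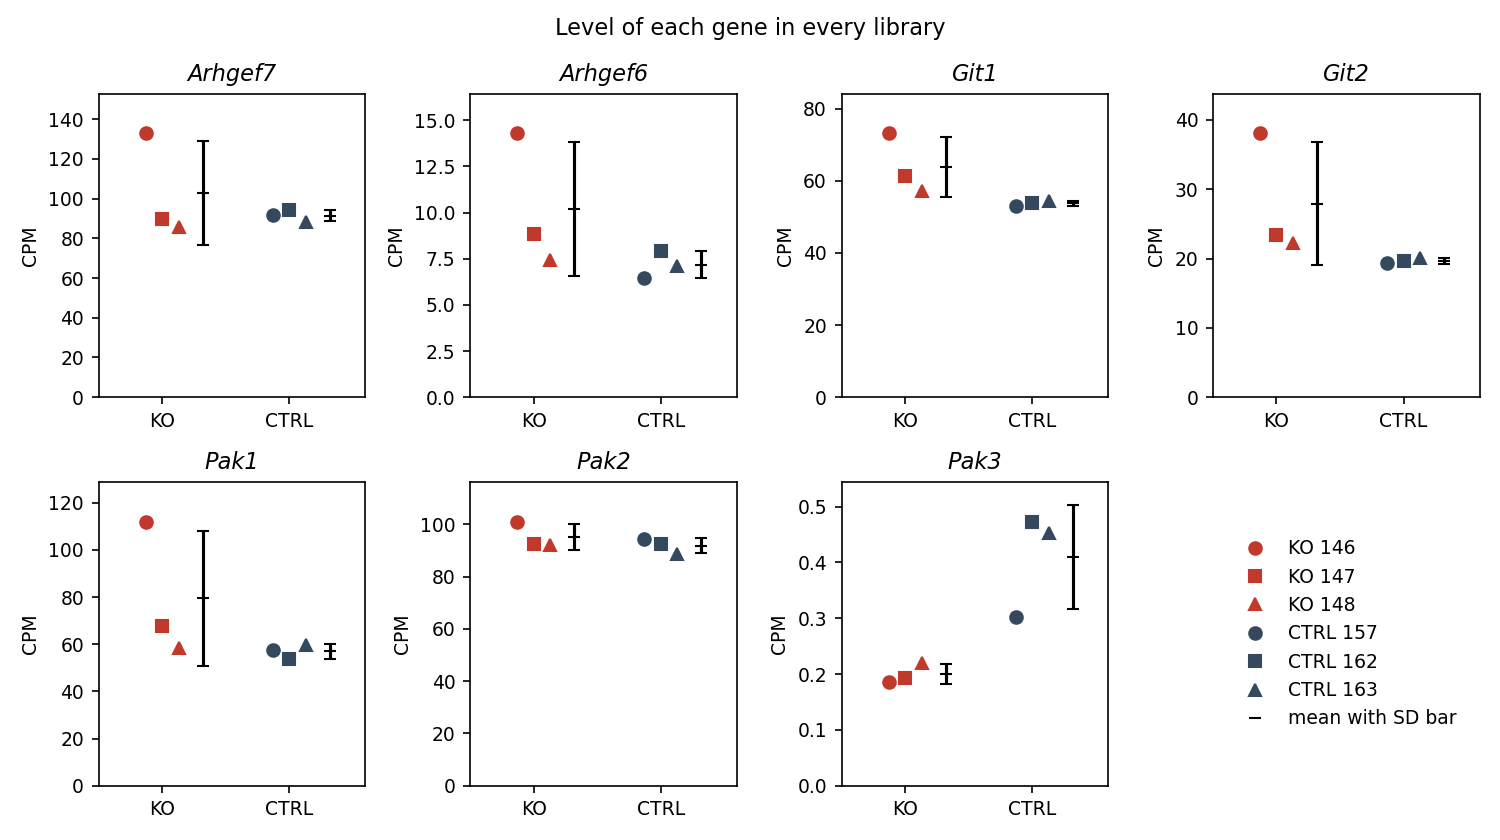
Level of each of the 7 genes in CPM (linear axes from 0), KO libraries left and CTRL libraries right, with 1 symbol per library and the group mean with an SD bar (n = 3 each). KO 146 is the highest library for every gene but Pak3, and the CTRL libraries lie close together for Git1 and Git2.

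None of the 7 genes was called. By edgeR 0 passed an adjusted p of 0.05, against 1.01% of the 17086 tested genes (173), with 0.591% of all tested called higher and 0.421% lower. DESeq2 and limma-voom also called 0 of the 7, against 16.4% and 0.72% of the genes each tested, and so did edgeR without KO 146, when 17.2% of all genes were called. An unadjusted p below 0.05 was reached by 3 of them in edgeR, Git1 and Git2 with KO higher and Pak3 with KO lower, while 17.5% of all tested genes reached it with KO higher and 11.8% with KO lower. All 7 passed the filter on low counts, so no member was left out. The median log2 fold change was 0.25 over the 7 genes and -0.006 over all tested genes. It was 0.13 over the 7 without KO 146, when 4 were positive and 3 negative.

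The distance of KO 146 from the CTRL libraries differed between the members. In that library Arhgef6, Pak1 and Git2 were 0.99, 0.98 and 0.95 above the CTRL mean on the log2 scale, Arhgef7 was 0.54 and Git1 0.45 above it, and Pak2 0.14. In KO 148 the values were 0.05 for Arhgef6, 0.04 for Pak1, 0.18 for Git2, -0.09 for Arhgef7, 0.09 for Git1 and 0.00 for Pak2. Marker means followed the same order of libraries. The podocyte mean was 2.40, 1.28 and 0.84 above the CTRL mean in KO 146, 147 and 148, and the proximal tubule mean was -1.05, -0.47 and -0.29 from it.

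**Figure D2:**
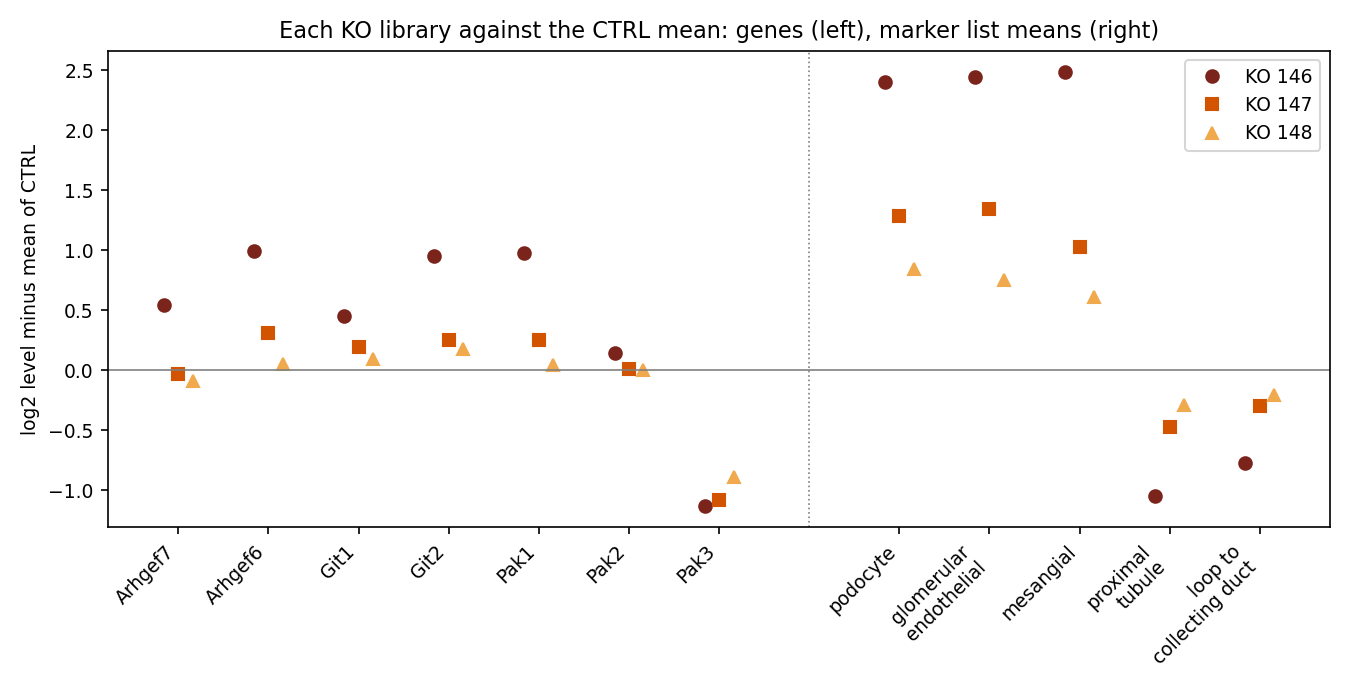
Log2 level in each KO library minus the CTRL mean, for the 7 genes (left of the dotted line) and for the mean log2 CPM of 5 marker lists (right). For all genes but Pak3 and for the 3 glomerular lists KO 146 is highest, and for both tubule lists it is lowest.

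With marker content in the model the sign of 6 log2 fold changes turned, and 1 gene was called. With the mean of the podocyte markers as a covariate, all 7 values were negative. Pak1 was at -0.50 (SE 0.103, 95% interval -0.73 to -0.27, edgeR adjusted p = 0.0493) and was called, when 1.04% of all tested genes were called and 0.217% were called lower. Arhgef7 was at -0.47 (SE 0.13, 95% interval -0.76 to -0.19, edgeR adjusted p = 0.13), Arhgef6 at -0.42, Git2 at -0.31, Git1 at -0.10 and Pak2 at -0.07. With the proximal tubule mean as a covariate Arhgef7 was at -0.38 (SE 0.0962, 95% interval -0.59 to -0.17, edgeR adjusted p = 0.0876) and Pak1 at -0.32 (edgeR adjusted p = 0.171), and 0 of the 7 were called, against 1.7% of all tested genes. Pak3 had values of -0.82 and -0.94 in the podocyte and proximal tubule fits.

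The calls in these covariate fits changed with single libraries. Pak1 was no longer called with the podocyte covariate when KO 146, KO 147, KO 148 or CTRL 157 was left out, with edgeR adjusted p = 1, 0.237, 0.364 and 0.105, while its log2 fold change stayed between -0.59 and -0.41. The genes called over the whole table were 177 in the fit with all libraries, and 3, 48, 22 and 113 in these 4 fits. Without KO 146 the 95% interval of Pak1 with the podocyte covariate was -0.88 to 0.06. For Arhgef7 the same fit gave -0.09 without KO 146, with a 95% interval of -0.58 to 0.41, and -0.54 without CTRL 163, where it was called among 513 genes (edgeR adjusted p = 0.0426). These left-out fits were chosen after seeing the data.

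**Figure D3:**
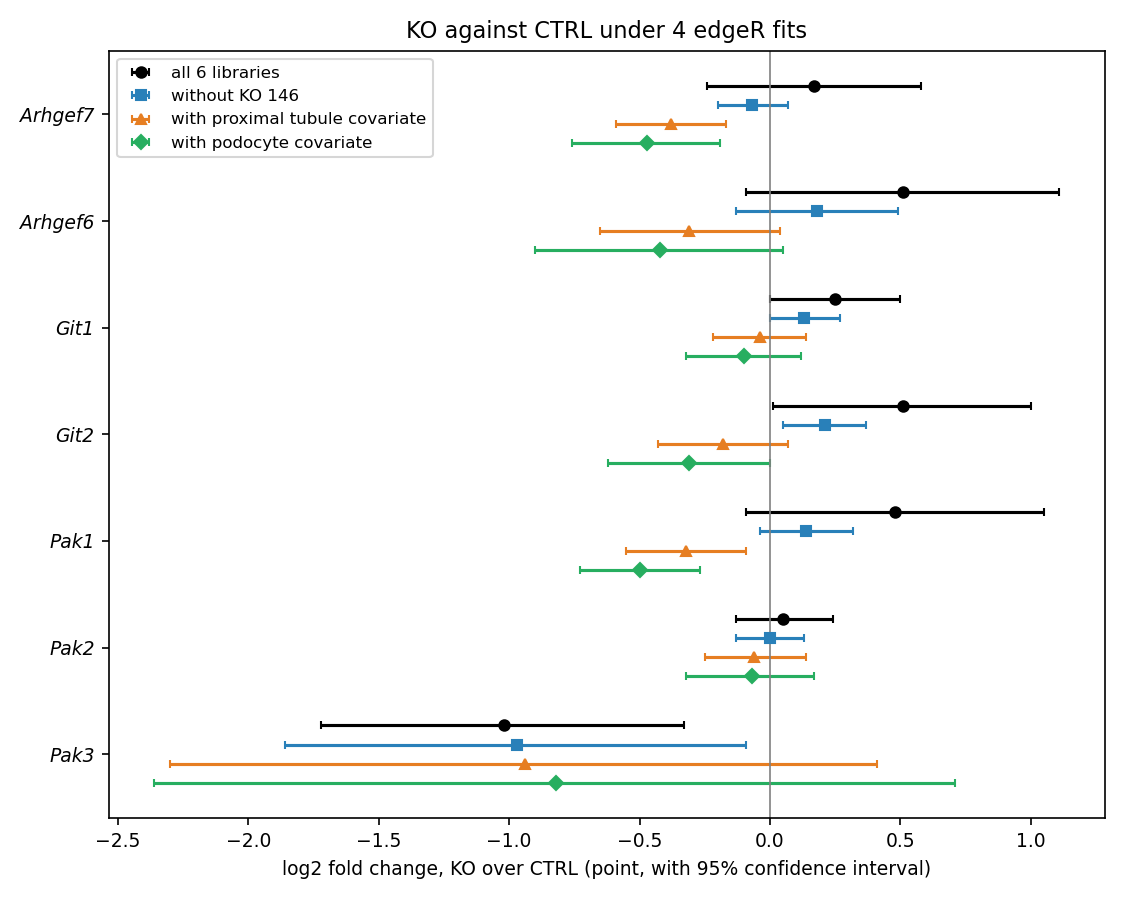
Log2 fold change of KO over CTRL with its 95% interval for each gene in 4 edgeR fits: all 6 libraries, without KO 146, and with a proximal tubule or podocyte marker mean as a covariate. The 6 genes other than Pak3 are above 0 with all 6 libraries and below 0 in both covariate fits.

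Set directly against the podocyte markers, Arhgef7 was lower in every KO library. Its log2 CPM minus the mean of these markers was -1.25, -0.70 and -0.32 in KO 146, 147 and 148, against 0.62, 0.77 and 0.43 in CTRL 157, 162 and 163. The means were -0.76 ± 0.467 in KO libraries and 0.61 ± 0.168 in CTRL libraries (SD, n = 3 each), a difference of -1.37 (exact two-sided permutation p = 0.1, the smallest that 3 against 3 can give). The same difference was -1.26 for Git1, -1.46 for Pak2 and -1.08 for Pak1. On this measure 86.8% of all tested genes were lower in every KO library than in every CTRL library, and 0.948% higher, so the pattern of Arhgef7 was that of most genes.

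Levels between genes were compared per kilobase of merged exons. In CTRL libraries the order was Pak1 at 14.5 ± 0.809, Pak2 at 13.5 ± 0.409, Git1 at 11.1 ± 0.152, Arhgef7 at 5.81 ± 0.18, Git2 at 1.13 ± 0.022, Arhgef6 at 0.838 ± 0.0861 and Pak3 at 0.0428 ± 0.00974 CPM per kb (SD, n = 3). Pak1 and Pak2 overlapped there, while each other neighbour was separated in every library. In KO libraries the order was the same: Pak1 at 20.2 ± 7.3, Pak2 at 14.0 ± 0.73, Git1 at 13.2 ± 1.73, Arhgef7 at 6.52 ± 1.66, Git2 at 1.61 ± 0.508, Arhgef6 at 1.19 ± 0.421 and Pak3 at 0.0209 ± 0.00187 CPM per kb. There Git1 overlapped with Pak2 and with Pak1, and Git2 with Arhgef6. Git1 was above Pak2 in KO 146, at 15.1 against 14.8 CPM per kb. The place of Arhgef7 depended on the length used, as did the order of Pak2 and Git1 in KO libraries. There the longest transcript as length put Git1 at 18.2 ± 2.39 and Pak2 at 16.6 ± 0.864 CPM per kb. Merged exons of Arhgef7 span 15751 bases and its longest transcript 4926. Per kilobase of the longest transcript Arhgef7 was at 20.9 ± 5.29 CPM in KO libraries and 18.6 ± 0.575 in CTRL libraries, level with Pak1 in CTRL libraries (18.6 ± 1.04).

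Within each family, 1 paralog carried most of the PIX and GIT transcripts, and Pak1 and Pak2 shared the PAK transcripts. Arhgef7 made up 83.5%, 84.6% and 86.2% of PIX transcripts per length in KO 146, 147 and 148, against 88.5%, 86.6% and 87.1% in CTRL 157, 162 and 163. The groups did not overlap, with a difference of -2.62 percentage points (exact two-sided permutation p = 0.1), which was -1.63 with no length. Shares in other gene families were not examined. In CPM the groups failed to overlap in 21.9% of all tested genes with KO higher and in 19.6% with KO lower. Git1 made up 87.3%, 90.4% and 90.2% of GIT transcripts in KO 146, 147 and 148, against 90.8%, 90.8% and 90.7% in CTRL 157, 162 and 163. The difference was -1.44 points (exact p = 0.1), and -0.459 without KO 146. With the longest transcript as length it was -2.12 points, and with no length -3.18 points, where Git1 made up 65.8% to 72.4% in KO libraries and 73.1% to 73.3% in CTRL libraries. Pak1 made up 65.7%, 55.8% and 52.3% of PAK transcripts in KO 146, 147 and 148, against 51.3%, 49.9% and 53.7% in CTRL 157, 162 and 163, and the groups overlapped. That difference was 6.31 points (exact p = 0.2), and 2.41 without KO 146. Pak3 was at most 0.182% of PAK transcripts in any library. The exact test cannot give a p below 0.1 with these group sizes.

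**Figure D4:**
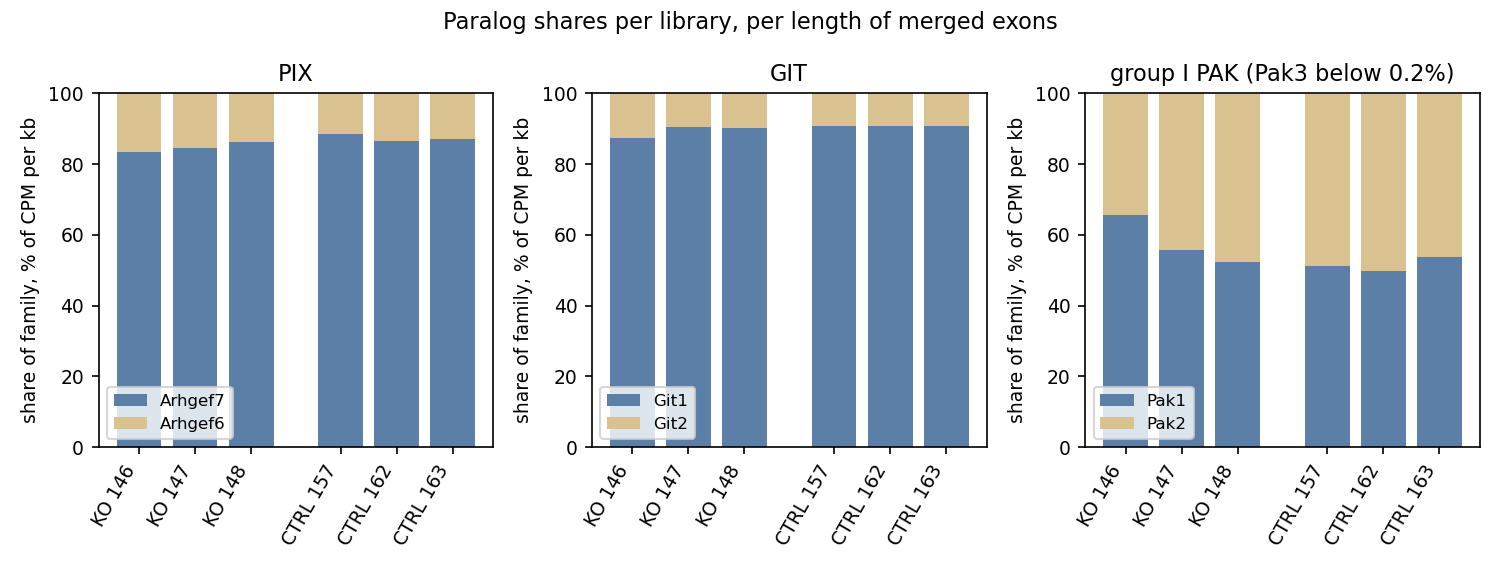
Share of each paralog in its family in every library, in percent of CPM per kilobase of merged exons (stacked bars, 0 to 100%), KO libraries left and CTRL libraries right. Arhgef7 and Git1 fill more than 80% of their families in every library, and Pak1 takes its largest share, 65.7%, in KO 146.

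The genes whose levels ran most like each member over the 6 libraries were sought among 10866 tested genes that code for proteins and averaged 5 CPM or more. Likeness was Pearson's r of log2 CPM over 6 libraries, a description in which KO 146 weighs most. Pak3 is the exception, because its KO libraries lay close together. For Arhgef7 these were Fbxo38, Hps6 and Strn3 (r = 0.996, 0.996 and 0.995), for Arhgef6 Dusp1, Cblb and Arrdc2 (0.9995, 0.996 and 0.996), and for Git1 Ephx1, Sept11 and Tnks1bp1 (0.9995, 0.9995 and 0.9992). For Git2 they were Macf1, Crybg3 and Ptpn9 (0.9994, 0.9993 and 0.9988), for Pak1 Fkbp9, Casp8ap2 and Tmx3 (0.9991, 0.9991 and 0.998), and for Pak2 2510009E07Rik, Ykt6 and Mtmr2 (0.997, 0.994 and 0.993). For Pak3, at 8 to 20 counts a library, they were Fra10ac1, Sik1 and Tob1 (0.995, 0.991 and 0.991). Such values were common: 2425 genes had an r of at least 0.9 with Git2, 762 with Arhgef7 and 441 with Pak2. Among the members themselves, r was 0.99 between Git1 and Git2 and 0.98 between Git2 and Pak1, and 0.85 between Arhgef7 and Git1.

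Around the complex, 136 genes in 8 lists were examined, of which 134 were tested. edgeR called 1 higher, Racgap1, and 0 lower, against 0.591% and 0.421% of all tested genes. Racgap1, a GAP for Rac and Cdc42 that acts at the central spindle in cytokinesis, was at 13.5, 15.5 and 16.9 CPM in KO 146, 147 and 148, against 7.34, 6.83 and 7.86 CPM in CTRL 157, 162 and 163. It rose by 1.06 on the log2 scale (SE 0.125, edgeR adjusted p = 0.032) and, unlike Arhgef7, Git2 and Pak1, was not highest in KO 146. Its log2 fold change stayed between 0.97 and 1.13 when 1 library was left out. It was no longer called without KO 147 or any of the CTRL libraries (edgeR adjusted p = 0.139 to 0.196). Those fits called 2 to 10 genes over the whole table. With the proximal tubule and podocyte covariates Racgap1 was at 1.30 and 1.33 and was called (edgeR adjusted p = 0.00134 and 0.00432). DESeq2 and limma-voom also called it (adjusted p = 2.45e-08 and 0.0377). Over the 134 genes 96 were positive and 38 negative, with a median of 0.16, against a median of -0.006 and 49.3% positive over all tested genes. This direction turned with a marker covariate: 34 were positive and 100 negative with the podocyte covariate (median -0.09), and 46 and 88 with the proximal tubule covariate (median -0.04), while the medians of all tested genes were -0.01 and 0.003. An unadjusted p below 0.05 was reached by 42 with KO higher and 6 with KO lower, against 17.5% and 11.8% of all tested genes. These were 10 and 18 with the podocyte covariate, and 9 and 12 with the proximal tubule covariate. Of all 17086 tested genes, 2603 and 2650 reached it in these fits, both directions together, against 5011 with no covariate. DESeq2 called 31 higher and 2 lower, against 11.3% and 5.06% of the genes it tested. Without KO 146 edgeR called 34 higher and 3 lower, with 10.5% and 6.62% of all genes called, and the list median was 0.07.

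The GTPases that PIX acts on differed little. Cdc42 and Rac1, chosen after their values were seen, had log2 fold changes of 0.02 (SE 0.0984) and 0.17 (SE 0.125). Cdc42 averaged 305 ± 25.2 CPM in KO libraries and 302 ± 6.15 CPM in CTRL libraries, and Rac1 230 ± 35.0 and 204 ± 6.6 CPM in the same order (SD, n = 3 each). Of the 9 GTPases of this class, Rhoj, an endothelial relative of Cdc42, had the smallest p, with 20.0, 8.13 and 7.75 CPM in KO libraries against 4.04, 4.65 and 3.70 CPM in CTRL libraries (1.54, SE 0.391, edgeR adjusted p = 0.0781). Rhog was at 0.39 (SE 0.156). Pak4 and Pak6, of the group II kinases, which are regulated differently from group I, were at -0.12 (SE 0.121) and 0.03 (SE 0.282). Pak5 was below the filter on low counts, with 0 to 9 counts a library.

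Of 19 adaptors and scaffolds, 11 were positive and the median was 0.05. With the podocyte covariate 4 were positive and 15 negative (median -0.08), and with the proximal tubule covariate 7 and 12 (median -0.06). Shank3, a scaffold that binds bPIX, had 111, 50.4 and 32.1 CPM in KO 146, 147 and 148, against 16.5, 20.2 and 17.8 CPM in CTRL 157, 162 and 163 (1.83, SE 0.434, edgeR adjusted p = 0.0756). Ptk2b, the focal adhesion kinase relative PYK2, averaged 44.9 ± 7.84 CPM in KO libraries and 66.0 ± 4.25 CPM in CTRL libraries (-0.56, SE 0.138, edgeR adjusted p = 0.0772). Of 18 PAK substrates and regulators, 16 were positive with a median of 0.29. With the podocyte covariate 2 were positive and 16 negative (median -0.08), and with the proximal tubule covariate 5 and 13 (median -0.03). Stmn1, a microtubule-destabilizing protein that PAK1 phosphorylates, had 57.5, 77.4 and 82.4 CPM in KO libraries against 48.0, 50.3 and 51.0 CPM in CTRL libraries (0.54, SE 0.139), and was lowest of the KO libraries in KO 146. Arpc1b, an Arp2/3 subunit, was at 0.62 (SE 0.162). Both had edgeR adjusted p values of 0.0785 and 0.0796 in that order, and neither was called.

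Of the other regulators of the same GTPases, Racgap1 was the one called. Of 39 tested exchange factors 31 were positive and 8 negative with a median of 0.26. The smallest p values among them were those of the mitotic Ect2 at 0.85 (SE 0.171) and the endothelial Fgd5 at 1.98 (SE 0.469), with edgeR adjusted p = 0.073 and 0.0757. Ect2 had 7.95, 11.3 and 10.6 CPM in KO libraries against 4.90, 5.62 and 6.03 CPM in CTRL libraries, so KO 146 was again the lowest of the KO libraries. Of 20 GAPs 12 were positive and 8 negative with a median of 0.14, and Srgap1 was at 1.81 (SE 0.447). With the podocyte covariate the exchange factors had 9 positive and 30 negative values and the GAPs 5 and 15 (medians -0.10 and -0.15). With the proximal tubule covariate these were 16 and 23 for the exchange factors and 5 and 15 for the GAPs. Of the 21 other ARF GAPs 15 were positive with a median of 0.08 (7 with the podocyte and 6 with the proximal tubule covariate), with Arap3 at 1.91 (SE 0.441) and Asap1 at 1.08 (SE 0.315). Of 6 ARF GTPases Arf6, on which GIT proteins act, was at 0.26 (SE 0.111) and Arf2 at 0.52 (SE 0.168). Fgd5, Srgap1, Arap3 and Rhoj were highest in KO 146, as were the podocyte, endothelial and mesangial marker sums.

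**Figure D5:**
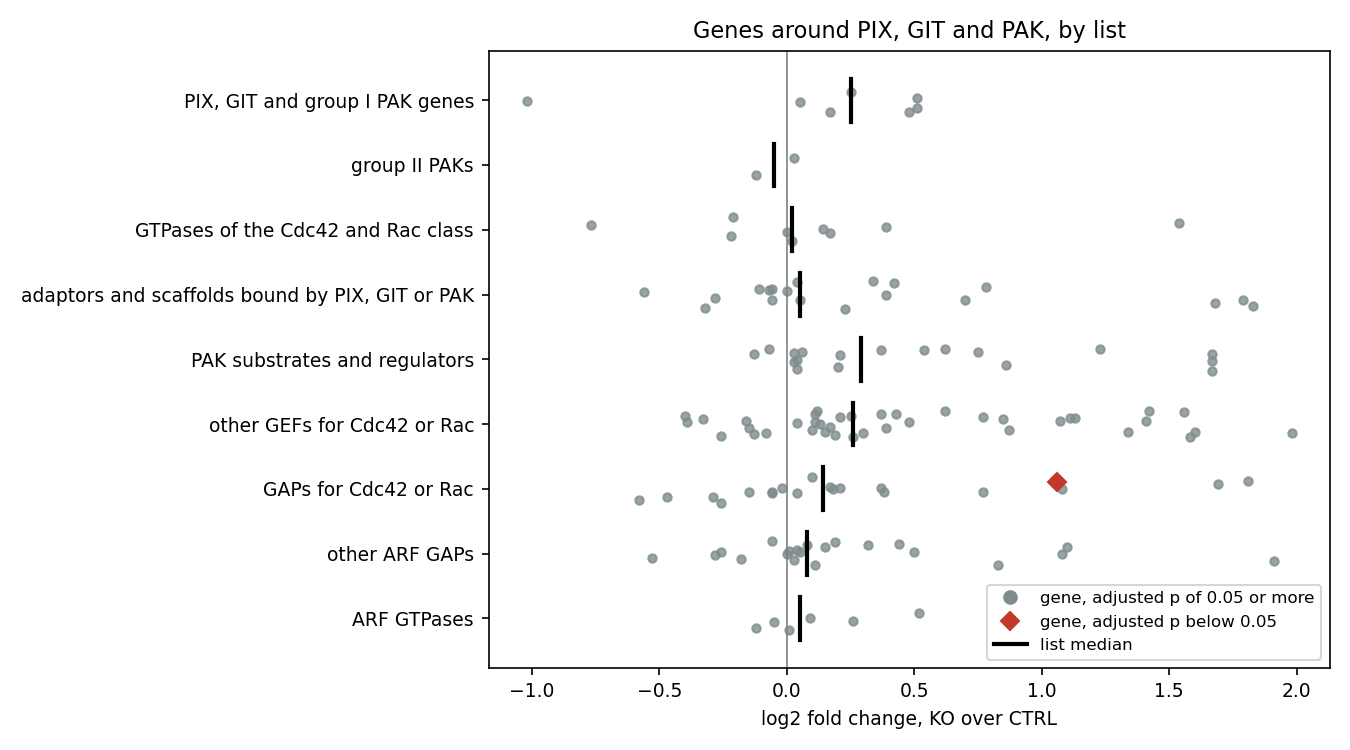
Log2 fold change of KO over CTRL for the 7 genes (top row) and for the tested genes of 8 pathway lists, 1 point per gene (vertical scatter only separates points), with a bar at each list median. Racgap1, the red diamond at 1.06, is the only gene of these rows with an adjusted p below 0.05.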

How the data were processed

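The authors deposited raw read counts per gene, 1 file per library. The submitters' processing notes list STAR 2.6.0, HTSeq 0.11.1, fastp 0.19.5 and DESeq2 without roles, and the build GRCh37, a human assembly, although the identifiers are mouse Ensembl genes. Strand setting and read length are unknown here. The 5 lines that name no gene were left out of library sizes. Records aligned to more than 1 place were 22.51% to 29.63% of all. Names, positions and lengths came from GENCODE M21 on GRCm38, which named 54809 of 54838 identifiers (Pak5 as Pak7).

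Counts were fitted with edgeR 4.0.16 in R 4.3.3 over all genes (TMM, filterByExpr with a minimum count of 10, robust quasi-likelihood F test, Benjamini-Hochberg over 17086 genes, called below 0.05). The standard error is the log2 fold change over the square root of F. CPM uses TMM library sizes, and log2 CPM a prior count of 2. Alternatives were DESeq2 1.42.0, limma-voom 3.58.1, other scalings, no filter, marker covariates and each library left out. The fit was tested on simulated data. The chi-square per degree of freedom between replicates was at least 16.7, so none was a copy, and each library has its own animal number. The edgeR p-values set the group difference against the spread between these animals, with variance estimates shared across genes. Each animal gave 1 library, so spread between animals and between preparations cannot be told apart. Members and lists were chosen with earlier results of these data known. Of each pathway list, every called gene and the 2 genes of smallest p averaging 5 CPM or more were named.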

Additional observations from a re-analysis of the deposited data

How the results depend on the processing

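No paired analysis was possible because the groups share no animal numbers. The log2 fold changes turned negative with the proximal tubule covariate for Arhgef7 (-0.38), Arhgef6 (-0.31), Git1 (-0.04), Git2 (-0.18), Pak1 (-0.32) and Pak2 (-0.06), and with the podocyte covariate (-0.47, -0.42, -0.10, -0.31, -0.50 and -0.07 in the same order). The cause was not tested. Leaving out 1 library gave -0.07 to 0.28 for Arhgef7, 0.18 to 0.69 for Arhgef6, 0.13 to 0.32 for Git1, 0.21 to 0.64 for Git2, 0.14 to 0.65 for Pak1, -0.000756 to 0.07 for Pak2 and -1.21 to -0.92 for Pak3. Without KO 146 Arhgef7 was at -0.07 and Pak2 at -0.000756. With the covariates, leaving out 1 library gave -0.61 to -0.09 (podocyte) and -0.48 to -0.17 (proximal tubule) for Arhgef7, and -0.59 to -0.41 and -0.40 to -0.18 for Pak1.

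Pak3 kept its sign under all 14 alternatives, at 8 to 20 counts a library, which limits its precision. Members called stayed at 0 except for 1 lower with the podocyte covariate. Scaling by library totals moved the median of all genes from -0.006 to 0.132. Genes called higher (101 with all libraries) numbered 1985 by DESeq2, 67 by limma-voom, 497 with no filter, 227 with the proximal tubule covariate and 1 to 2266 with 1 library left out. Genes called lower (72) numbered 886 by DESeq2, 463 with no filter, 37 with the podocyte covariate and 1 to 1147 with 1 library left out. Of the pathway genes, 1 was called higher, against 3 with library totals, 31 by DESeq2 and 4 with no filter. With the proximal tubule covariate 4 were called higher, with the podocyte covariate 3, and with 1 library left out 0 to 37. Of all tested genes the shares called higher were 0.591% with all libraries, 0.667% with library totals, 11.3% by DESeq2 and 1.41% with no filter. They were 1.33% with the proximal tubule covariate, 0.819% with the podocyte covariate and 0.00569% to 12.9% with 1 library left out. Pathway genes called lower were 0, against 2 by DESeq2 and 1 with no filter. With the proximal tubule covariate 1 was called lower, with the podocyte covariate 3, and with 1 library left out 0 to 3. Of all tested genes the shares called lower were 0.421% with all libraries, 5.06% by DESeq2 and 1.31% with no filter. They were 0.375% with the proximal tubule covariate, 0.217% with the podocyte covariate and 0.00569% to 6.62% with 1 library left out. Differences in paralog share and Arhgef7 relative to podocyte markers kept their sign under all alternatives run.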
